A study of Mus musculus with 6 samples.

Results

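Trbv20, known in older nomenclature as Vβ15, is one of the variable (V) gene segments of the mouse T cell receptor β (TCR-β) locus. It was followed through 6 TCR-β libraries of CD4+ T cells, 1 from the kidney and 1 from the spleen of each of 3 mice. The clones were selected on the V gene of their alignment, namely all coding clones whose first V hit was TRBV20, where coding means that the complementarity-determining region 3 (CDR3) holds neither a stop codon nor a frameshift. This gave 14859 of 330061 coding clones (4.50%), of which kidneys 1, 2 and 3 (numbered by mouse) held 24, 36 and 27 and the matching spleens 4811, 6619 and 3342. None of them had a second V gene among its hits. Because the V hit chose the clones, the first residues of their CDR3, which the V segment encodes, are a description and not a finding.

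The mice were C57BL/6 wildtype. In each, a clip closed the right ureter on day 0 and was removed on day 6 (RUUO, a reversible obstruction), the left ureter was ligated on day 17 (UUO), and the organs were harvested on day 22. The kidney libraries came from the ligated left kidney. All mice had both injuries, so every comparison here is between the organs of injured mice, and animals without obstruction were not analysed here. Cells were enriched with magnetic beads, in an additional depletion step for the kidney, and then sorted as CD4+. The files hold receptor sequences only, so the sort could not be checked against marker genes, and more cells of a clone cannot be told apart from more TCR-β mRNA per cell.

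A TCR-β chain is assembled from a V, a diversity (D) and a joining (J) segment. Nucleases cut bases from the segment ends, terminal transferase adds bases that no segment encodes, and the join forms the CDR3, the loop that usually contacts the peptide. Each rearranged cell passes its CDR3 nucleotide sequence on to its progeny, so that a sequence seen in many mRNA molecules can mark a clone that has divided. Molecules were counted by unique molecular identifiers (UMIs), random tags added in reverse transcription so that PCR copies of a molecule count once. Clones with the same CDR3 bases and the same V and J genes were counted as 1 clonotype.

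In the GRCm38.p6 annotation, Trbv20 is a V segment of 705 bases on chromosome 6, at chr6:41188273-41188977, between Trbv19 and Trbv21. Clones aligned with an uncut V end showed which letters Trbv20 brings into the CDR3. The most frequent letters among them are given below beside those of Trbv19, Trbv13-3 and Trbv1, whose usage over the 6 libraries was most like that of Trbv20, with the codon of the fourth CDR3 residue in capitals. Trbv20 brings 14 bases and an arginine codon at that place, and each of the other three brings a serine codon.
Trbv20: tgtggtgctAGGga
Trbv19: tgtgccagcAGTatag
Trbv13-3: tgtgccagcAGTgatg
Trbv1: tgcacctgcAGTgcaga
Between 80.6% and 82.5% of the spleen Trbv20 clonotypes aligned as uncut carried exactly these letters. The others differed within the aligned stretch, so counts of cut and added bases are those of the aligner.

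The kidney clonotypes that the results turn on are shown next, with capitals for the bases between the aligned segments that no segment accounts for. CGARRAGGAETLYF and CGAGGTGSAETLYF were the largest Trbv20 clonotypes of kidneys 2 and 3, and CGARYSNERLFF was found in both of these kidneys. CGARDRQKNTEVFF and a clonotype joined to Trbj2-2 were the largest in kidney 1, and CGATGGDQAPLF and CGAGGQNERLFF were further clonotypes of kidney 2.
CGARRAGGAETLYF: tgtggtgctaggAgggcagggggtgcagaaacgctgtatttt
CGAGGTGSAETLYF: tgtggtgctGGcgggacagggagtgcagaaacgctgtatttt
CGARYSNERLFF: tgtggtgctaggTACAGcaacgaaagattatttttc
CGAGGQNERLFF: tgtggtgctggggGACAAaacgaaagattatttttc
Trbj2-2 clonotype of kidney 1: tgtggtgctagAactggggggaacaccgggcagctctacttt
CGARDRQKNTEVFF: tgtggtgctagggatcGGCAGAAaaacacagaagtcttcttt
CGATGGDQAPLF: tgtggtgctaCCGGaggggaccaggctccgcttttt
The first pair shares Trbj2-3, the next pair shares Trbj1-4, and all of them begin with Cys-Gly-Ala.

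The kidney libraries held 693 to 1248 coding UMIs and the spleen libraries 97735 to 224811, and Trbv20 held 33, 82 and 50 of these molecules in kidneys 1, 2 and 3 and 6590, 9980 and 4179 in spleens 1, 2 and 3. The limit that a count of 0 allows, taken as 3 counts, was 0.433% in kidney 3 and 0.00307% in spleen 3, the shallowest libraries. It covers counting error only, as do all intervals here. Trbv20 molecules were read 769, 508 and 688 times each on average in the kidneys, and between 9.57 and 23.3 times in the spleens.

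Trbv20 was a middle-ranking gene of the spleen and varied among the kidneys. It made up 4.11% of the UMIs in the spleen of mouse 1 (exact 95% interval 4.02% to 4.21%), 4.44% in mouse 2 (4.35% to 4.53%) and 4.28% in mouse 3 (4.15% to 4.40%), and was the 11th of the Trbv genes in each. In the kidneys its share was 4.27% in mouse 1 (2.96% to 5.94%), 6.57% in mouse 2 (5.26% to 8.09%) and 7.22% in mouse 3 (5.40% to 9.40%), with ranks of 11, 8 and 4. In the order of the 6 libraries, kidneys 3 and 2 came first with overlapping intervals, and both lay above the intervals of all spleens. Kidney 1 lay between the spleens, and its interval covered those of all 3 spleens.

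Kidneys averaged 6.02% ± 1.55 and spleens 4.28% ± 0.163 (SD, n = 3 each), and the kidney value was the higher in 3 of 3 mice. This direction was not particular to Trbv20. Trbv19 was also higher in the kidney in 3 of 3 mice, while Trbv13-3 and Trbv1 were lower there in mouse 1. Some other Trbv genes were lower in the kidney in 3 of 3 mice. For Trbv20 the log2 fold change of kidney over spleen was 0.50 (SE 0.18, edgeR's quasi-likelihood test, Benjamini-Hochberg adjusted p over 24 Trbv genes = 0.0933). The difference did not pass the threshold of 0.05. Of all 24 genes, 4.17% were called. Trbv20 was proposed with these shares in view, so this p is no independent evidence about it. The call depended on the fit: the adjusted p was 0.029 with TMM factors in edgeR and 1.14e-05 with DESeq2, which differs in scaling and in test. It also depended on the animals and on the largest clones of the libraries. Without kidney 1 the adjusted p was 0.00417, and without the largest clonotype of each library, none of which used Trbv20, it was 0.0395. With the mouse as a block it was 0.590.

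Counted as distinct clonotypes, Trbv20 made up 4.97%, 4.74% and 5.71% of kidneys 1, 2 and 3 and 4.38%, 4.71% and 4.28% of their spleens. The 3 kidney values were the highest of the 6, but that of kidney 2 lay close to that of its spleen. Such an order was not counted for the other Trbv genes. For Trbv20 the log2 fold change was 0.19 (SE 0.16, adjusted p = 0.662, edgeR). No Trbv gene was called (0.0% of 24) in this comparison by edgeR's quasi-likelihood test, in which 3 had an unadjusted p under 0.05, or by DESeq2, in which 5 had. The Trbv20 share of the UMIs thus stood above its share of the clonotypes in kidneys 2 and 3 and below it in kidney 1.

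When the largest clonotype of each Trbv gene was left out of every library, the Trbv20 share of the UMIs was 4.64%, 5.66% and 6.51% in kidneys 1, 2 and 3 against 4.13%, 4.43% and 4.27% in their spleens. Every kidney then lay above every spleen. How many other Trbv genes also separated in this way was not counted. Trbv20 was proposed with its usage in view, so this order is no independent evidence about it. Its log2 fold change was 0.39 (SE 0.15, adjusted p = 0.179, edgeR), with 0.0% of the 24 genes called and 6 at an unadjusted p under 0.05 (none and 4 by DESeq2). When only the largest Trbv20 clonotype was removed, the share was 3.90%, 4.74% and 5.58% in the kidneys, and kidney 1 then lay below its spleen at 4.09%. No other gene lost a clonotype here, so the Trbv20 share could only fall. The removed clonotype held 9.09%, 29.3% and 24.0% of the Trbv20 UMIs of kidneys 1, 2 and 3, but only 0.516%, 0.932% and 0.718% in their spleens. The 2 organs therefore cannot be compared by these values.

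**Figure D1:**
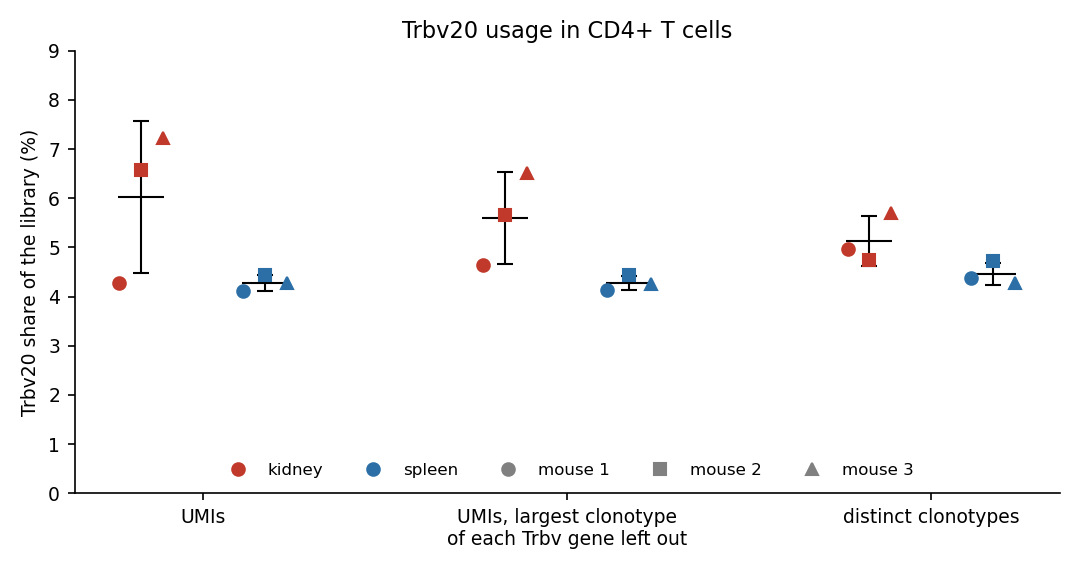
Trbv20 share of each library in percent, by UMIs, by UMIs with the largest clonotype of each Trbv gene left out, and by distinct clonotypes. Symbols are mice, colours are organs, and lines with bars are the mean ± SD of 3 libraries. By UMIs kidneys 2 (6.57%) and 3 (7.22%) stand above the spleens (4.11% to 4.44%) while kidney 1 (4.27%) lies among them.

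The 3 Trbv genes whose UMI shares over the 6 libraries ran most like those of Trbv20 were Trbv19, Trbv13-3 and Trbv1. The root mean square difference of the log2 shares, each centred on the mean of its gene, was 0.24 for Trbv19, 0.26 for Trbv13-3 and 0.28 for Trbv1. Trbv19 made up 6.15% ± 0.298 of the kidney UMIs and 5.07% ± 0.714 of the spleen UMIs (SD, n = 3). Trbv13-3 was nearly level, with 9.34% ± 1.25 in the kidneys and 9.30% ± 0.337 in the spleens. Trbv1, the most used gene of both organs by mean share, held 11.5% of kidneys 1 and 2 and 17.9% of kidney 3. In spleens 1, 2 and 3 it held 13.6%, 12.4% and 11.6%, so that kidneys 1 and 2 lay below their own spleens.

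The molecules of Trbv20 were spread unevenly over its clonotypes in 2 of the kidneys. Mean UMIs per Trbv20 clonotype were 1.38, 2.28 and 1.85 in kidneys 1, 2 and 3, against 1.61, 1.61 and 1.44 for clonotypes of other Trbv genes in the same kidneys. In the spleens the values were 1.37, 1.51 and 1.25, close to the 1.46, 1.61 and 1.25 of the other genes. On the log2 scale kidneys exceeded spleens by 0.39 (exact permutation test, two-sided, p = 0.2, where 3 against 3 libraries allow no p below 0.1). The difference was 0.11 (exact permutation test, p = 0.5) without the largest Trbv20 clonotype of each library. The kidney libraries held far fewer UMIs, and the organs were not brought to equal depth for this measure. In kidneys 1, 2 and 3 there were 2, 9 and 4 Trbv20 clonotypes of at least 3 UMIs, which held 18.2%, 64.6% and 44.0% of the Trbv20 UMIs there. For the other Trbv genes together such clonotypes held 35.5%, 35.4% and 24.6%, so that Trbv20 was below the rest in kidney 1 and above it in kidneys 2 and 3.

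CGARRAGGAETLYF was the largest Trbv20 clonotype of the series. It had 24 UMIs in kidney 2, 1.92% of that library (exact 95% interval 1.24% to 2.85%) and 29.3% of its Trbv20 UMIs, and held rank 3 among all clonotypes there. In the spleen of the same mouse it had 93 UMIs, 0.041% of the library, and held rank 8. In kidney 3, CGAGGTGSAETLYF had 12 UMIs, 1.73% of the library (0.898% to 3.00%) and 24.0% of its Trbv20 UMIs, and it had 30 UMIs in its spleen, where it held rank 4 among all clonotypes. Neither of them had a UMI in any library of another mouse. Kidney 1 held no Trbv20 clonotype above 3 UMIs. Of its largest pair, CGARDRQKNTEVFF had 29 UMIs in its own spleen and the Trbj2-2 clonotype had none in any spleen. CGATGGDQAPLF, with 5 UMIs in kidney 2, had 1 in its spleen, and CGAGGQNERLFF, with 3 in kidney 2, had 7. In kidney 3, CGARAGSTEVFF had 3 UMIs and none in its spleen, and a clonotype of 15 residues joined to Trbj2-1 had 3 and 4.

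In the spleens the leading Trbv20 clonotypes were small beside the library. The 3 largest were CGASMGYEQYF with 34 UMIs, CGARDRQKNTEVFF with 29 and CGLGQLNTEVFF with 21 in mouse 1. In mouse 2, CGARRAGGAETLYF with 93 UMIs was followed by a Trbj2-5 clonotype with 52 and a Trbj1-3 clonotype of 15 residues with 33. In mouse 3, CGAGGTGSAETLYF with 30 UMIs was followed by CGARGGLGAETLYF with 28 and a Trbj2-2 clonotype with 13. The largest Trbv20 clonotype made up 0.516%, 0.932% and 0.718% of the Trbv20 UMIs of spleens 1, 2 and 3. Several of these were also among the kidney clonotypes of the same mouse: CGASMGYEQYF had 1 UMI in kidney 1, the Trbj2-5 clonotype of mouse 2 and the Trbj2-2 clonotype of mouse 3 had 2 each, and the Trbj1-3 clonotype had 4 in kidney 2.

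Many kidney Trbv20 clonotypes recurred in the animal's own spleen. Kidney 1 shared 12 of its 24 with spleen 1, kidney 2 shared 25 of 36 (69.4%) with spleen 2, and kidney 3 shared 17 of 27 (63.0%) with spleen 3. Clonotypes of the other Trbv genes were found there in 48.1%, 49.9% and 42.2% of cases. The Trbv20 share was the higher one in 3 of 3 mice, by 14.1 percentage points on average (exact sign-flip permutation test, two-sided, p = 0.25, the smallest that 3 mice allow). Among kidney clonotypes with 1 UMI, 9 of 17, 14 of 25 and 11 of 18 of Trbv20 were found, against 145 of 339, 244 of 563 and 126 of 343 of the other genes. Of the clonotypes with 3 UMIs or more, 1 of 2, 9 of 9 and 3 of 4 of Trbv20 were found, against 44 of 51, 59 of 66 and 26 of 32 of the other genes, so that the share of Trbv20 was below that of the others in kidneys 1 and 3. Weighted by UMIs, Trbv20 was also below the other genes in mouse 1, with 48.5% against 60.7%, and above them in mice 2 (86.6% against 64.4%) and 3 (72.0% against 52.1%), a mean difference of 9.96 points (exact sign-flip permutation test, p = 0.5). In the spleens of the other mice, 3 to 5 of the Trbv20 clonotypes of a kidney were found, 8.33% to 18.5%, against 3.59% to 8.06% for the other genes. Restricted to clonotypes with at least 2 kidney UMIs, the difference from the other genes in the own spleen was 4.44 points (exact sign-flip permutation test, p = 0.75).

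**Figure D2:**
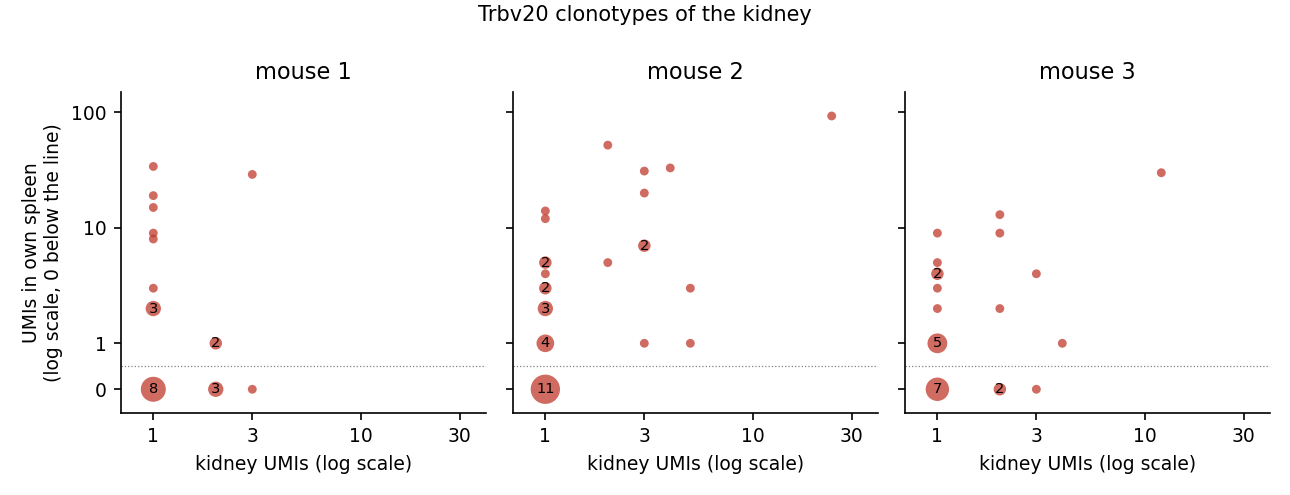
UMIs of each Trbv20 clonotype of the kidney (horizontal axis, log scale) against its UMIs in the spleen of the same mouse (vertical axis, log scale, with 0 drawn below the dotted line), 1 panel per mouse. Point area and the number in a point give how many clonotypes share the position. The clonotype with 24 kidney UMIs in mouse 2 had 93 spleen UMIs, that with 12 in mouse 3 had 30, and kidney 1 reached 3 UMIs at most.

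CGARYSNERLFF was the only Trbv20 clonotype found in more than 1 kidney, with an identical nucleotide sequence in kidneys 2 and 3. It had 5 UMIs in kidney 2 (0.401%, exact 95% interval 0.130% to 0.932%) and 4 in kidney 3 (0.577%, 0.157% to 1.47%), and 0 in kidney 1. Each of the spleens held it as well, with 4, 3 and 1 UMIs in mice 1, 2 and 3, no more than 0.0025% of a library. The molecules in the kidneys rested on 1529 and 2996 reads and those in the spleens on 72, 42 and 17. Across all Trbv genes, 2 clonotypes were found in at least 2 kidneys, and this was 1 of them.

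The 15 Trbv20 kidney clonotypes with at least 3 UMIs formed 37 pairs of equal length, which differed at a median of 7 residues. At most 3 residues differed in 3 of the 37 pairs (8.11%), against 9 of 207 pairs (4.35%) within the other Trbv genes. Single genes with such pairs ranged from 0.0% to 25.0%, with Trbv13-3 at 10.0%, Trbv19 at 5.88% and Trbv1 at 2.74%, so Trbv20 lay within their range. The 3 Trbv20 pairs were the shared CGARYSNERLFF with itself and its pairs with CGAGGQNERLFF of kidney 2, at 3 residues and 7 bases. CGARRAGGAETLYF and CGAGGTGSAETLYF, from different mice, differed at 4 of 14 residues and at 5 bases. Pairs with the same V and J gene share the residues those segments encode, and the 2 clonotypes of the last pair both used Trbd1 and Trbj2-3.

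Sharing between mice was also counted in the spleens, where Trbv20 stood close to the other genes. Of the Trbv20 clonotypes of spleens 1, 2 and 3, 7.69%, 6.86% and 9.46% were found in the spleen of another mouse, against 7.71%, 6.59% and 8.91% for the other Trbv genes. The mean difference was 0.265 percentage points (exact sign-flip permutation test, two-sided, p = 0.5). It was 0.408 points without mouse 1 and 0.125 without mouse 3. All 3 spleens shared 82 of the 14161 distinct Trbv20 clonotypes (0.579%). Those 82 carried 1.33 bases outside the segments on average, against 3.09 over all spleen Trbv20 clonotypes, and their mean CDR3 length was 12.96 residues against 13.04. Of the 86 distinct clonotypes of the kidneys, 6 were among them.

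Trbv20 CDR3s were short. In the spleens their mean length was 13.04, 13.02 and 13.04 amino acids in mice 1, 2 and 3, against 13.89, 13.89 and 13.88 for the other Trbv genes, and the values of Trbv20 did not overlap with the others. The difference was -0.854 residues (exact sign-flip permutation test over 3 mice, two-sided, p = 0.25, the smallest possible), in the same direction in 3 of 3. Among the 24 Trbv genes, Trbv20 ranked 23rd by mean length, and Trbv30, which also brings 14 bases, was the only shorter one at 12.94. A length of 13 residues was the most frequent for Trbv20, with 35.7% ± 0.293 of its clonotypes, and 14 for the other genes, with 31.5% ± 0.0987 (SD, n = 3). The Trbv20 letters in the CDR3 were 14 bases, and those of the other genes ran from 13 to 17. Trbv31, the gene with 13, averaged 13.61 residues and was thus longer than Trbv20. A link between these bases and CDR3 length was not tested.

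The joins of Trbv20 differed from those of the other genes in several smaller respects in the spleens. On average 2.19 ± 0.046 bases were cut from its V end, against 2.44 ± 0.005 for the other genes, and the V end was uncut in 31.4% ± 0.950 of Trbv20 clonotypes against 27.1% ± 0.069 (SD, n = 3). No D segment was called in 34.2% ± 0.767 of Trbv20 clonotypes and in 27.9% ± 0.073 of the others, and Trbv20 held rank 4 of the 24 genes by this share. Bases outside the segments numbered 3.02 ± 0.037 per Trbv20 clonotype and 3.10 ± 0.021 per clonotype of the other genes. Each of these differences had 1 direction in 3 of 3 spleens, and each gave the smallest p that 3 mice allow (exact sign-flip permutation test, p = 0.25). For the bases outside the segments, the difference of -0.08 changed to -0.03 (exact sign-flip permutation test, p = 0.75) among clonotypes with at least 2 UMIs. Trbv20 ranked 17th of the 24 genes both by bases cut and by bases outside the segments, so neither value is particular to it. Trbv1 averaged 2.20 bases cut and 2.90 bases outside the segments.

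**Figure D3:**
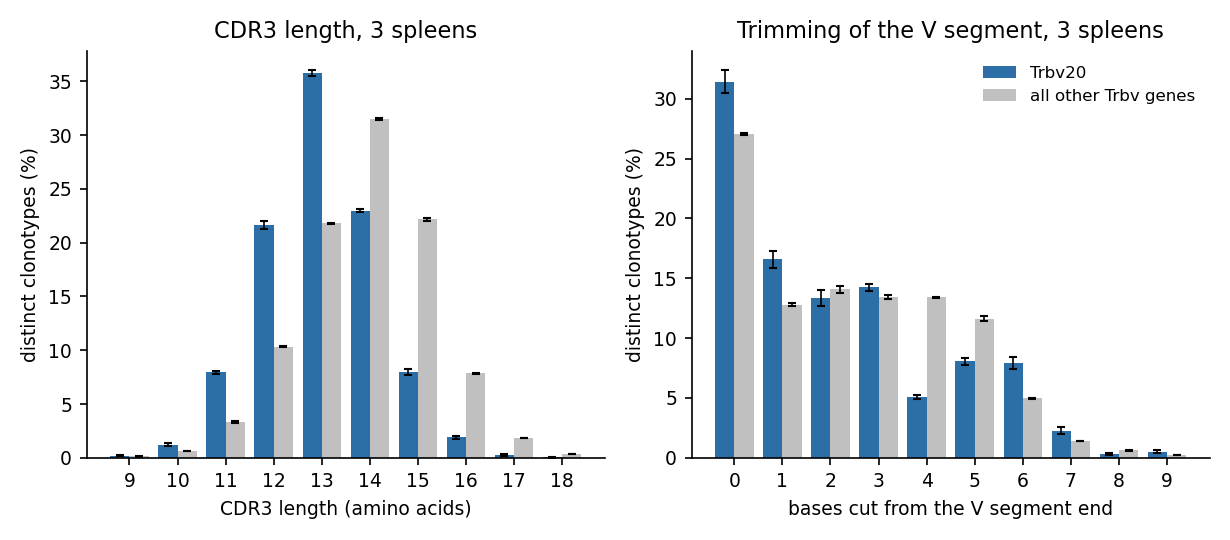
Distinct clonotypes in percent by CDR3 length in amino acids (left) and by bases cut from the V segment end (right), for Trbv20 and for all other Trbv genes, as mean ± SD of 3 spleens. Trbv20 peaks at 13 residues (35.7%) and the other genes at 14 (31.5%), and fewer Trbv20 clonotypes had 4 or 5 bases cut.

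In the kidneys, which held few clonotypes, the same measures spread more widely. Mean CDR3 length of Trbv20 was 13.29, 13.03 and 13.19 residues in kidneys 1, 2 and 3, and the kidney mean exceeded the spleen mean by 0.134 (exact permutation test, two-sided, p = 0.3), or by 0.0756 without mouse 1. With each UMI counted in place of each clonotype, the kidney values were 13.42, 13.23 and 13.34 and the spleen values 13.02, 13.01 and 13.05, which did not overlap (difference 0.306, exact permutation test, p = 0.1, the smallest possible). The large clonotypes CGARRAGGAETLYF and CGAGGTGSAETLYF have 14 residues each. Kidney 1, whose value of 13.42 was the highest, held neither of them, and their part in the difference was not tested. Bases outside the segments were 3.50, 3.17 and 1.93 per clonotype in kidneys 1, 2 and 3 and between 2.98 and 3.06 in the spleens (difference -0.157, exact permutation test, p = 1.0), and without mouse 3 the sign turned.

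Nearly all Trbv20 CDR3s began with Cys-Gly, 100% in each kidney and 99.7% in each spleen, where at most 0.025% of the CDR3s of other genes did, as follows from the V segment that defined the clones. The fourth residue, at which trimming begins to act, was arginine in 58.3%, 66.7% and 63.0% of the clonotypes of kidneys 1, 2 and 3 and in 66.2%, 65.2% and 64.4% of those of the spleens. The kidney mean less the spleen mean was -2.60 points (exact permutation test, p = 0.5, adjusted p = 0.8 over the 3 residues with at least 5% in either organ). Serine stood there in 20.8%, 5.56% and 11.1% of kidney clonotypes and in 10.2% to 11.3% of spleen clonotypes, and glycine in 4.17%, 8.33% and 18.5% against 6.32% to 7.04%. Both had overlapping groups (exact permutation tests, p = 0.8 for serine and p = 0.7 for glycine). The aligned V stretch reached the end of its arginine codon in 61.4% ± 1.06 of spleen clonotypes (SD, n = 3). Such a stretch can hold mismatches, so the codon itself was kept in fewer. Where the stretch reached this far, 90.5% to 91.6% had arginine in this place, and where it ended earlier, 23.6% to 24.7% had it.

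J segments were used by Trbv20 much as by the other genes. In the spleens, Trbj2-7 was the most frequent partner with 15.9% ± 0.487 of the distinct Trbv20 clonotypes, followed by Trbj2-5 with 12.9% ± 0.282 and Trbj2-3 with 11.3% ± 0.327, and the least frequent were Trbj1-5 with 2.61% ± 0.236 and Trbj1-6 with 3.14% ± 0.209 (SD, n = 3). The J profile of Trbv20 differed from that of all other genes by 4.03% ± 0.172 of the clonotypes, the second-smallest such distance among the 24 genes after Trbv13-1 with 3.09% ± 0.893. Of the 12 Trbj genes, 6 differed between Trbv20 and the other genes at an adjusted p under 0.05 by edgeR's quasi-likelihood test with the library as a block, against 54.2% of all 288 pairs of a Trbv and a Trbj gene. A share near this background is no feature of Trbv20.

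Trbj1-2 showed the greatest difference of the 6. It was joined to 6.42%, 6.80% and 6.25% of Trbv20 clonotypes in spleens 1, 2 and 3 and to 5.32%, 5.51% and 4.94% of the others, so that the groups did not overlap. The log2 fold change was 0.30 (SE 0.05, adjusted p = 2.22e-05, edgeR), and it passed the threshold under each of the 9 alternatives run. Trbj2-3 (log2 fold change 0.15) and Trbj2-1 (0.11) were also higher with Trbv20, and Trbj2-2 (-0.13), Trbj1-1 (-0.11) and Trbj2-7 (-0.10) were lower. Higher calls were 25.3% of all pairs and lower calls 28.8%. Of these smaller differences, that of Trbj2-7 had an adjusted p of 0.00251 and that of Trbj2-3 of 0.00413 (edgeR), while the adjusted p of Trbj1-1, Trbj2-1 and Trbj2-2 lay between 0.0451 and 0.0486. Without spleen 2, only Trbj1-2 was called.

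In the fit without a mouse block, but not in that with it, kidney and spleen differed within Trbv20 in the use of Trbj2-3 by UMIs. Its share of the Trbv20 UMIs was 12.1%, 32.9% and 38.0% in kidneys 1, 2 and 3 and 11.8%, 12.4% and 13.2% in the spleens, so that kidney 1 lay within the spleen range. The log2 fold change was 1.28 (SE 0.30, adjusted p = 0.00136, edgeR's quasi-likelihood test over 12 Trbj genes), and 8.33% of the 12 were called. For the other Trbv genes the Trbj2-3 share was 9.59%, 8.23% and 7.15% of the UMIs in the kidneys. By distinct clonotypes the share within Trbv20 was 12.5%, 11.1% and 22.2% in the kidneys against 10.9%, 11.4% and 11.5% in the spleens (log2 fold change 0.41, adjusted p = 0.728, edgeR, with 0.0% of the 12 genes called and 0 at an unadjusted p under 0.05). The UMI call rested on the 2 largest clonotypes: 24 of the 27 Trbj2-3 UMIs of kidney 2 belonged to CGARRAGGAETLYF and 12 of the 19 of kidney 3 to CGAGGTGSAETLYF. Without the largest Trbv20 clonotype of each library, an alternative chosen after seeing the data, the log2 fold change was -0.10 (adjusted p = 0.921, edgeR). That removal was uneven. It took 9.09%, 29.3% and 24.0% of the Trbv20 UMIs from kidneys 1, 2 and 3, but only 0.516%, 0.932% and 0.718% from spleens 1, 2 and 3. In kidneys 2 and 3 the Trbj2-3 share could only fall, so the lower value is no separate evidence. With the mouse as a block the adjusted p was 0.474.

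**Figure D4:**
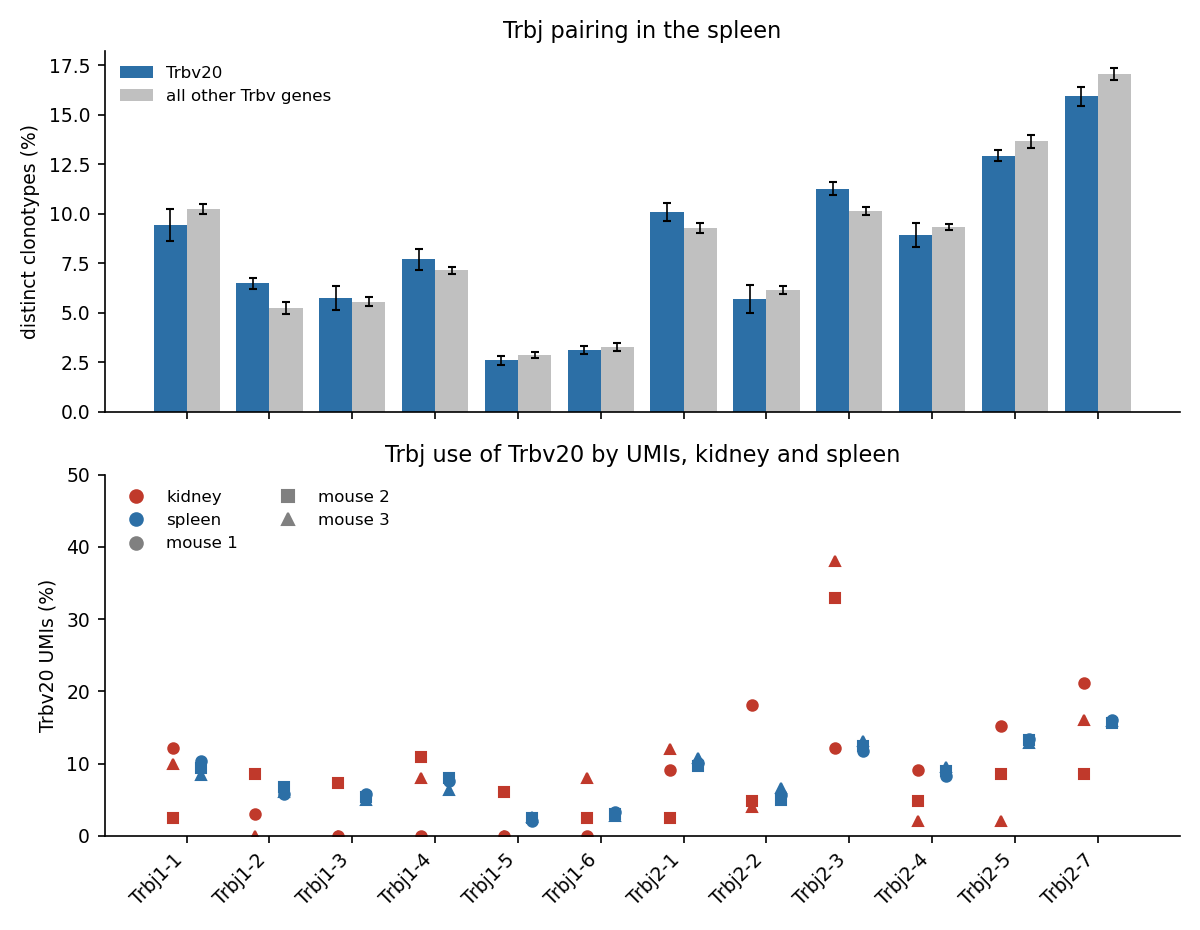
Trbj genes joined to Trbv20. Top, distinct clonotypes in percent for Trbv20 and for all other Trbv genes, mean ± SD of 3 spleens; bottom, percent of the Trbv20 UMIs of each library, with colours for organs and symbols for mice. For Trbj2-3, kidneys 2 (32.9%) and 3 (38.0%) stand apart from kidney 1 (12.1%) and the spleens (11.8% to 13.2%).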

How the data were processed

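TCR-β transcripts were amplified by 5′ RACE with UMIs. For every clone that MiXCR assembled, the authors deposited a UMI count and a read count, not normalized. The authors' files also give fractions of a library's UMIs and reads, used only to check the counts, and a lowest quality score in the CDR3, not used here. R 4.4.2 and build GRCm38 are named in the submitters' processing notes.

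Kidney libraries held 693 to 1248 coding UMIs and spleen libraries 97735 to 224811. Trbv and Trbj counts (at least 10 over the libraries) were tested with edgeR 4.0.16 in R 4.3.3, without TMM factors, and DESeq2 1.42.0 as an alternative. CDR3 measures were compared by an exact permutation test (all 20 ways to split 6 libraries into groups of 3) or by sign flips within 3 mice. Python 3.11.15, scipy 1.17.1, pandas 2.3.3, numpy 2.4.6 and matplotlib 3.10.9 were used. The labels assign organs with the same number to 1 mouse. Centred on its organ, the log2 Trbv usage of kidney and spleen correlated by 0.284, 0.365 and 0.298 within mice 1, 2 and 3 (across 24 genes). On 50 simulated sets of 24 genes, a doubled Trbv20 was called in 100%, and with no change a call was made in 2% of sets. These sets held counting error only, without large clones or differences between mice, and a doubling is larger than the difference seen. Their rates therefore do not carry over to the real libraries.

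Trbv20, the lists and the tests were chosen with earlier results of these data known. The text names the 3 largest clonotypes by UMIs in each library (none where more than 3 tied for the last place), those in at least 2 kidneys and the most alike pairs of at least 3 UMIs. Trbj genes named are those called and the 3 most and 2 least used. Trbv genes named are the 3 with usage most like that of Trbv20, and genes named as a rank neighbour or for the fewest bases brought into the CDR3.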

Additional observations from a re-analysis of the deposited data

Results flagged for a closer look

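Non-coding Trbv20 clones, which no comparison used, gave signal above the 3 counts that a count of 0 allows in 4 libraries. They held 4 UMIs in kidney 2 and 206, 270 and 134 UMIs in spleens 1, 2 and 3. In the spleens they made up 3.93%, 3.56% and 3.77% of the Trbv20 clones, against 6.49%, 6.73% and 5.54% of the clones of other Trbv genes. Kidneys 1 and 3 held none among 24 and 27 Trbv20 clones, and kidney 2 held 4 among 40.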

How the results depend on the processing

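Of 187 alternative values of 20 results, 149 kept their direction and their side of the threshold, or a count within 1.5 times. This tally includes results tested by permutation or sign flips, whose smallest possible p (0.1 and 0.25) lies above the threshold. For these, only the direction could change. No Trbv20 clone had a second V hit, so keeping only clones with a single V hit changed nothing within Trbv20. Removing the count filter also left the Trbj values within Trbv20 unchanged. The count of 149 therefore includes outcomes that were fixed in advance. Trbv20 usage by UMIs passed the threshold with TMM (log2 fold change 0.58), with DESeq2 (0.67) and without the largest clonotype of each library (0.55). Leaving out single libraries gave 0.39 to 0.68, and 0.12 to 0.26 by distinct clonotypes and 0.29 to 0.49 without the largest clonotype of each gene. Paired by mouse (replicate block), the log2 fold change was 0.48 (adjusted p = 0.590, edgeR). The number of Trbj genes called for Trbv20 in the spleen was 3 with no replicate block, and 1 to 5 without single spleens (3 without spleen 1, 1 without spleen 2). Within Trbv20, the Trbj genes called by kidney against spleen numbered 0 with the replicate block, 0 by distinct clonotypes and 0 without the largest Trbv20 clonotype of each library, where Trbj2-3 turned to -0.10. Without the largest clonotype, the Trbj2-3 share of kidneys 2 and 3 could only fall. The cause of the other shifts was not tested. Without single mice, the kidney-spleen difference in bases outside the segments ranged from -0.472 to 0.292, and that in arginine at the fourth residue from -4.63 to 0.00786 points. In the same way, the difference in CDR3 length ranged from 0.0756 to 0.199 residues, and that between Trbv20 and the other genes in sharing among spleens from 0.125 to 0.408 points. The kidney-spleen difference in arginine was 5.34 points among clonotypes with at least 2 UMIs. The replicate block changed no other call. Kidney libraries held 24 to 36 Trbv20 clonotypes, which limits what their shares can show, and 3 mice allow no permutation p below 0.1 between organs or 0.25 within mice.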
